A study of Mus musculus with 8 samples.

Results

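Vascular endothelial growth factor (VEGF) ligands, their receptors and the hypoxia regulators were followed across macrophages of the mouse mammary gland as 10 genes: the ligands Vegfa, Vegfb, Vegfc and Pgf, the receptors and co-receptors Flt1, Kdr, Nrp1 and Nrp2, and the hypoxia-inducible factors Hif1a and Epas1. They were taken by name from the pathway's ligands, receptors and hypoxia factors, with earlier results of these data known. All 10 were found among the 18193 genes that had a probe set with 1 gene symbol, and the probe set with the highest mean signal stood for a gene. All 10 also exceeded their array's median signal on at least 2 arrays and so were among the 13041 genes tested, although Vegfb did so on exactly 2 arrays and Pgf only through the transgenic pools numbered 2.

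The 8 arrays came from FVB female mice, 6 weeks old when dimerizer treatment began. Transgenic mice carried MMTV-iFGFR1, a fibroblast growth factor receptor 1 that a dimerizer drug switches on. Its mouse mammary tumour virus promoter drives it in mammary epithelium, so the sorted cells are neighbours of the cells that carry the switch. Controls were littermates without the transgene. Both genotypes received the dimerizer, for 48 hours or 4 weeks, so drug exposure is shared and no untreated animals were compared. The groups were transgenic 48 hours, control 48 hours, transgenic 4 weeks and control 4 weeks, each with 2 pools of 3 mice. Cells of collagenase-digested glands were sorted with an antibody to Cd11b, the integrin that macrophages share with other myeloid cells, neutrophils among them, and with NK cells. Each array measured 1 pool, so the pools are the replicates. The title, source and genotype of transgenic 4 weeks pool 2 name transgenic mice and its free-text description names mice without the transgene. It was used as transgenic, and the Vegfa difference and the counts of positive differences are also given without it.

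VEGF ligands are secreted proteins that bind receptor tyrosine kinases mainly on endothelial cells and set off vessel growth and permeability. Neuropilins are co-receptors that bind both VEGF and class 3 semaphorins, and some macrophages carry them. Hif1a and Epas1 encode the oxygen-regulated subunits of the transcription factors that switch on Vegfa and glycolytic genes when oxygen is short. Their protein is controlled mainly by oxygen-dependent hydroxylation and degradation, which mRNA levels do not show.

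Signals are linear microarray intensities that the authors scaled to the same trimmed mean on every array, and the array medians lay between 96.4 and 126.9. Genes were compared with limma as log2(signal + 30.8), with p-values adjusted by the Benjamini-Hochberg method over all 13041 genes. At this threshold 0 genes (0%) differed between transgenic and control pools at 48 hours, at 4 weeks or over both times, and 531 (4.07%), 662 (5.08%) and 582 (4.46%) had an unadjusted p under 0.05. The macrophage marker Csf1r, the receptor for colony stimulating factor 1, gave 68311 to 93065 on the 8 arrays and Adgre1, which encodes the F4/80 antigen, gave 9842 to 14627. Itgam, which encodes the sorted Cd11b antigen, gave a low signal of 46.8 to 545.4. Control 4 weeks pool 2 stood apart in RNA quality, with a 3' to 5' beta-actin signal ratio of 37.04 against 6.835 to 13.89 on the other arrays. Labels do not say whether the pools were processed in batches. The p-values rest on the spread between 2 pools per group, shared over the 4 groups and moderated by the spread of other genes.

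Vegfa, the main ligand of blood vessel growth, was the member whose signal separated the genotypes most. It gave 618 and 742 in transgenic pools at 48 hours, against 504 and 148 in control pools. At 4 weeks it gave 957 and 612.5 in transgenic pools, against 343 and 131 in control pools. All 4 transgenic pools lay above all 4 control pools, a pattern that 1.48% of tested genes showed in this direction, and Vegfa was 1 of 10 members with it.

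Vegfa averaged 680.3 ± 87.8 in transgenic and 325.7 ± 251 in control pools at 48 hours, and 784.6 ± 243 in transgenic and 237.4 ± 150 in control pools at 4 weeks (SD, n = 2 each). The log2 difference was 1.20 (SE 0.54, 95% interval 0.00 to 2.39) at 48 hours and 1.69 (SE 0.54, 0.50 to 2.89) at 4 weeks. Over both times it was 1.45 (SE 0.38, 0.60 to 2.29), a 2.72-fold difference on the offset scale. None of these passed the threshold in limma (unadjusted p = 0.0498, 0.0101 and 0.00336, adjusted p = 0.976, 0.965 and 0.959). Its p over both times was the 30th smallest of 13041. An exact two-sided permutation of genotype within each time gave p = 0.0556, the smallest that its 36 arrangements allow. This value follows from the separation of the pools already described and adds no support to it.

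The difference between the genotype differences at the 2 times was 0.50 (SE 0.76, 95% interval -1.19 to 2.19, adjusted p = 0.990). Between pools of the same number, transgenic exceeded control Vegfa by 0.28 and 2.11 on the log2 scale at 48 hours and by 1.40 and 1.99 at 4 weeks. The size at 48 hours rested on control pool 2: without it the difference was 0.41, and without control pool 1 it was 1.99. At 4 weeks it was 1.09 without control pool 2, the array with the high actin ratio, and 2.00 without transgenic pool 2, the pool with conflicting labels. With the actin ratio of each array as a covariate the differences were 0.93 at 48 hours and 1.10 at 4 weeks.

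A second Vegfa probe set, 1451959_a_at, gave 33.5 and 182 in transgenic pools and 19.0 and 24.4 in control pools at 48 hours. The 4 weeks signals were 86.5 and 112 in transgenic pools and 32.2 and 11.6 in control pools. Again every transgenic pool lay above every control pool, although the lowest transgenic and the highest control value were close. Tested separately among the probe sets, an alternative chosen after seeing the data, its log2 difference over both times was 1.24 (SE 0.55, unadjusted p = 0.0448, adjusted p = 0.940). The probe set used above was 1420909_at. The 2 probe sets share their RNA, so they are not independent measurements of the mice.

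**Figure D1:**
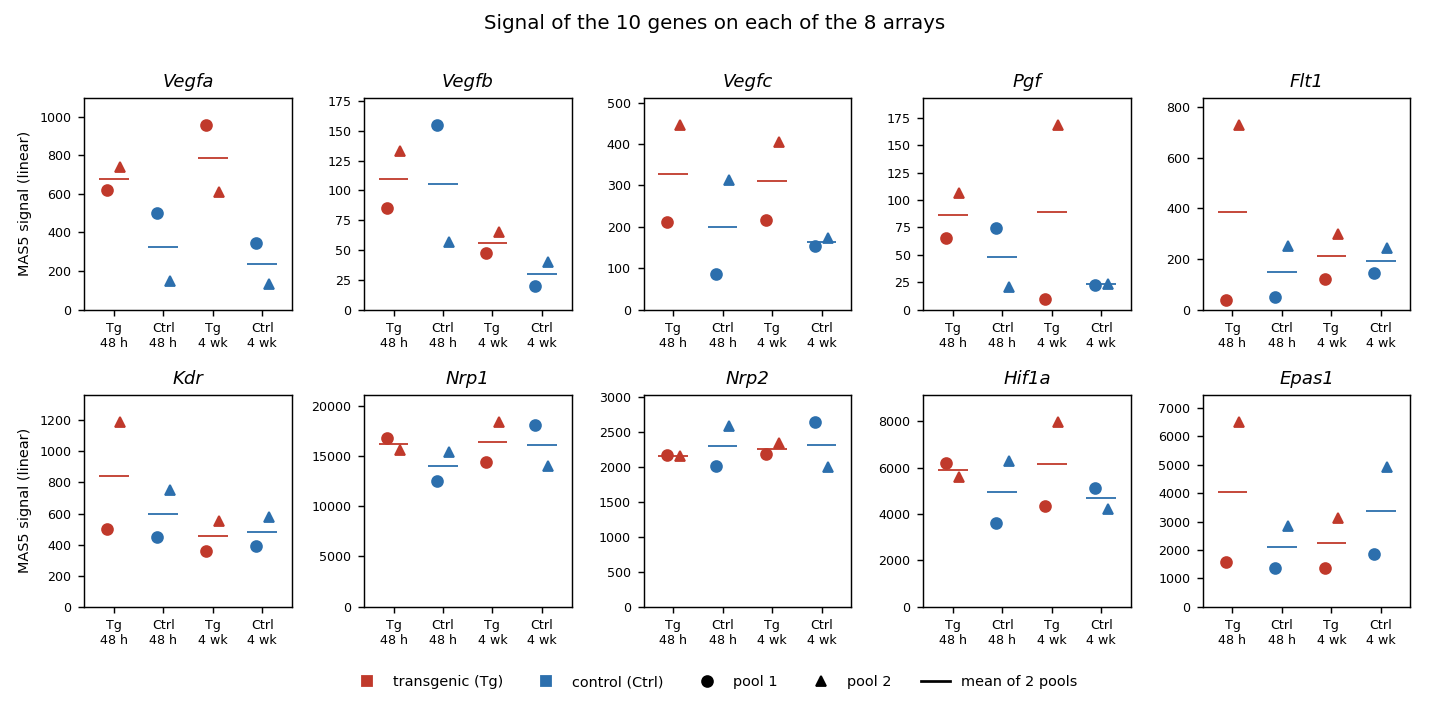
MAS5 signal of the 10 genes on each array, on linear axes from 0, with 1 panel per gene, circles for pool 1, triangles for pool 2 and a line at the mean of the 2 pools; transgenic (red) stands left of control (blue) at each time. Vegfa lies at 612.5 to 957 in transgenic and 131 to 504 in control pools, whereas the Nrp2 ranges of the genotypes overlap at both times.

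**Figure D2:**
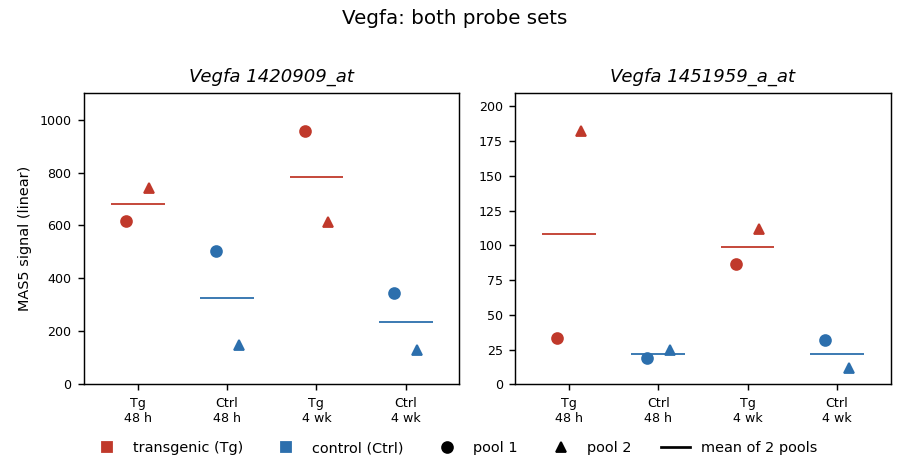
Linear MAS5 signal of the 2 Vegfa probe sets on each of the 8 arrays, with circles for pool 1, triangles for pool 2 and a line at the mean of the 2 pools. On both probe sets the 4 transgenic pools lie above the 4 control pools, by a narrow gap of 33.5 against 32.2 on the second one.

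Promoter sequence is shown for Vegfa because it is the member with the clearest separation, and for Hif1a because its window holds the most matches to the core that hypoxia-inducible factors bind. That count takes overlapping matches on opposite strands separately, and the windows of Vegfb, Kdr and Nrp2 each held 2. RefSeq windows of 250 bases before a transcription start (GRCm38.p6) matched all members except Epas1, in 11 windows of 9 genes. The core was searched as ACGTG or GCGTG on either strand and was present in 8 of 11 windows, against 38.6% of 32851 windows of all genes. The GC box, GGGCGG on either strand, was present in 9 of 11 windows, against 32.7%. These matches are letters in a window and not measured binding, and sequence further from the start was not searched. In the Vegfa window, chr17:46032378-46032627 on the minus strand, the capitals mark 2 GC boxes, and no core was present, while a window of a second Vegfa start held 2. In the Hif1a window, chr12:73907617-73907866 on the plus strand, the capitals mark 3 core matches, of which 2 overlap on opposite strands.
Vegfa: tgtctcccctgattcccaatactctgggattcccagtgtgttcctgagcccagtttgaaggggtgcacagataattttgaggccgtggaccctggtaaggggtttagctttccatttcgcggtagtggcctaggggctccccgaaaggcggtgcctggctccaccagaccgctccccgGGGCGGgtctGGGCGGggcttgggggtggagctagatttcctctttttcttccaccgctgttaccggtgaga
Hif1a: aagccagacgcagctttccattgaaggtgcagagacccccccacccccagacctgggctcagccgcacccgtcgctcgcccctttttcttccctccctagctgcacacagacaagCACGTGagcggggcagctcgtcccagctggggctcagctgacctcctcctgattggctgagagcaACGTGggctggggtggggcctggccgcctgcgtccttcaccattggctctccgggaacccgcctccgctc

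None of the other 3 ligands separated the genotypes at both times, and levels of different genes are not ranked here because probe signals do not allow it. Vegfc, a ligand of lymphatic vessel growth, gave 211 and 445 in transgenic pools and 85.1 and 313 in control pools at 48 hours. After 4 weeks it gave 217 and 404 in transgenic pools, above the 153 and 172 in control pools. Its log2 difference was 0.76 (SE 0.55) at each time and 0.76 (SE 0.39, 95% interval -0.11 to 1.63, unadjusted p = 0.0793, adjusted p = 0.959) over both. The genotypes overlapped at 48 hours and did not at 4 weeks.

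Vegfb, a ligand of Flt1 linked to fatty acid transport in endothelium, gave 85.4 and 133 in transgenic pools and 155 and 56.7 in control pools at 48 hours. By 4 weeks the signals were 47.6 and 64.9 in transgenic pools and 20.0 and 40.2 in control pools. Signal was below the array median on 6 of 8 arrays, so the 4 weeks separation lies among dim values. The log2 difference was 0.12 (SE 0.63) at 48 hours and 0.53 (SE 0.63) at 4 weeks. Pgf, placental growth factor, which binds Flt1, gave 65.4 and 106 in transgenic pools and 74.4 and 20.7 in control pools at 48 hours. At 4 weeks the signals were 9.4 and 168 in transgenic pools and 22.6 and 23.4 in control pools, so the transgenic pools lay on both sides of the controls. Its log2 difference was 0.64 (SE 0.86) at 48 hours and 0.73 (SE 0.86) at 4 weeks, with adjusted p = 0.979 and 0.995. Without transgenic 4 weeks pool 2 the 4 weeks value was -0.42.

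Nrp1, a co-receptor for VEGF-A and semaphorin 3A, gave 16776 and 15652 in transgenic pools and 12545 and 15383 in control pools at 48 hours. At 4 weeks it gave 14411 and 18349 in transgenic pools and 18099 and 14061 in control pools. Both transgenic pools lay above both control pools at 48 hours, but the mean of all Nrp1 probe sets turned the sign (-0.010), and the groups overlapped at 4 weeks. The log2 difference was 0.22 (SE 0.21, 95% interval -0.24 to 0.69) at 48 hours and 0.03 (SE 0.21, -0.44 to 0.49) at 4 weeks. Over both times the interval of this probe set ran from -0.20 to 0.45, which leaves out a 2-fold change in either direction. Other Nrp1 probe sets gave 0.14 (SE 0.17, 1418084_at), 0.02 (SE 0.21, 1448944_at) and, less precisely on a dimmer one, -0.28 (SE 0.38, 1457198_at).

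Nrp2, the co-receptor best known for VEGF-C and semaphorin 3F, gave 2177 and 2154 in transgenic pools and 2018 and 2595 in control pools at 48 hours. The 4 weeks signals were 2183 and 2347 in transgenic pools and 2640 and 2002 in control pools. At each time the control pools lay on both sides of the transgenic pools. The log2 difference was -0.08 (SE 0.24) at 48 hours and -0.02 (SE 0.24) at 4 weeks. Another Nrp2 probe set, 1447343_at, differed by -1.01 at 48 hours, so the probe sets of Nrp2 do not all give the same picture.

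Kdr, the principal signalling receptor for VEGF-A in endothelium, gave 501 and 1186 in transgenic pools and 448 and 749 in control pools at 48 hours. After 4 weeks it gave 357 and 549 in transgenic pools and 389 and 577.5 in control pools. The genotypes overlapped at both times, with log2 differences of 0.40 (SE 0.44) and -0.09 (SE 0.44). Flt1, a receptor that binds VEGF-A tightly and also acts as a decoy, gave 39.1 and 727.5 in transgenic pools and 49.2 and 250 in control pools at 48 hours. By 4 weeks the signals were 120.5 and 299 in transgenic pools and 143 and 241.5 in control pools. Its log2 difference was 0.62 (SE 0.98) at 48 hours and 0.04 (SE 0.98) at 4 weeks, and its 4 probe sets disagreed in sign at 4 weeks. Without transgenic 48 hours pool 2 the 48 hours differences were -1.10 for Flt1 and -0.20 for Kdr.

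Hif1a gave 6206 and 5581 in transgenic pools and 3602 and 6296 in control pools at 48 hours. At 4 weeks the signals were 4337 and 7948 in transgenic pools and 5140 and 4208 in control pools. The groups overlapped at both times, and the log2 difference was 0.30 (SE 0.33) at 48 hours and 0.33 (SE 0.33) at 4 weeks. Another Hif1a probe set, 1448183_a_at, differed by -0.95 at 48 hours and 0.72 at 4 weeks. A further one, 1416035_at, differed by -0.28 (SE 0.27) and 0.41 (SE 0.27), so the sign at 48 hours depended on the probe set.

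Epas1, which encodes the subunit HIF-2 alpha that endothelium and some macrophages express, gave 1565 and 6492 in transgenic pools and 1368 and 2851 in control pools at 48 hours. At 4 weeks it gave 1355 and 3111 in transgenic pools and 1857 and 4915 in control pools. Its log2 difference was 0.68 (SE 0.68) at 48 hours and -0.55 (SE 0.68) at 4 weeks. The change between the times was -1.24 (SE 0.96, unadjusted p = 0.226, adjusted p = 0.988), the lowest p of a member in that comparison, where 0 genes passed (0%) and 4.74% had an unadjusted p under 0.05. With the actin covariate the 4 weeks value was 0.43, and without transgenic 48 hours pool 2 the 48 hours value was -0.33.

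Across the 10 genes, 0 passed the adjusted threshold in any of the 6 comparisons. Differences were positive for 9 of 10 members at 48 hours, against 54% of tested genes, and for 7 of 10 at 4 weeks, against 48%. Over both times 9 of 10 were positive, against 50.8%. Pgf, positive in each of these comparisons, was tested only because of the transgenic pools numbered 2, so its sign adds no support to the counts. The median log2 difference of the 10 members was 0.51 at 48 hours and 0.19 at 4 weeks, against 0.04 and -0.02 over all genes. Signs depended on the probe set choice. With the mean of all probe sets of a gene, Nrp1 and Hif1a turned negative at 48 hours, and Flt1 and Epas1 over both times. At 4 weeks Flt1 turned negative and Nrp2 positive. The counts and medians also moved with single pools, in a repeat without each pool that was chosen after seeing the data. At 4 weeks, 3 of 10 were positive without transgenic pool 2, the pool with the conflicting description, with a median of -0.12, and 10 of 10 without transgenic pool 1, with a median of 0.64. At 48 hours, 5 of 10 were positive without transgenic pool 2 (median 0.10), 6 of 10 without control pool 1 (median 0.06) and 9 of 10 without transgenic pool 1 (median 0.95). Over both times, leaving out 1 pool gave 6 to 10 of 10. Without transgenic 4 weeks pool 2 the count over both times was 8 of 10, and the Vegfa difference over both times was 1.60 (adjusted p = 0.993). Transgenic pools lay above control pools without overlap for Vegfa and Nrp1 at 48 hours, 2 of 10 members against 18.9% of genes, and for Vegfa, Vegfb and Vegfc at 4 weeks, 3 of 10 against 14.7%. Without transgenic 4 weeks pool 2 these were again Vegfa, Vegfb and Vegfc, 3 of 10 against 30.5% of genes. With all pools and the probe set used for each gene, no member lay below without overlap, against 16.1% and 17.2% of genes. Among other probe sets of the members, Nrp2 1447343_at and Hif1a 1448183_a_at lay below without overlap at 48 hours, and Flt1 1454037_a_at at 4 weeks. Above lay Nrp1 1418084_at at 48 hours, Vegfc 1419417_at and Hif1a 1416035_at at 4 weeks, and Vegfa 1451959_a_at at both times. At an unadjusted p under 0.05 the single member was Vegfa in each genotype comparison.

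**Figure D3:**
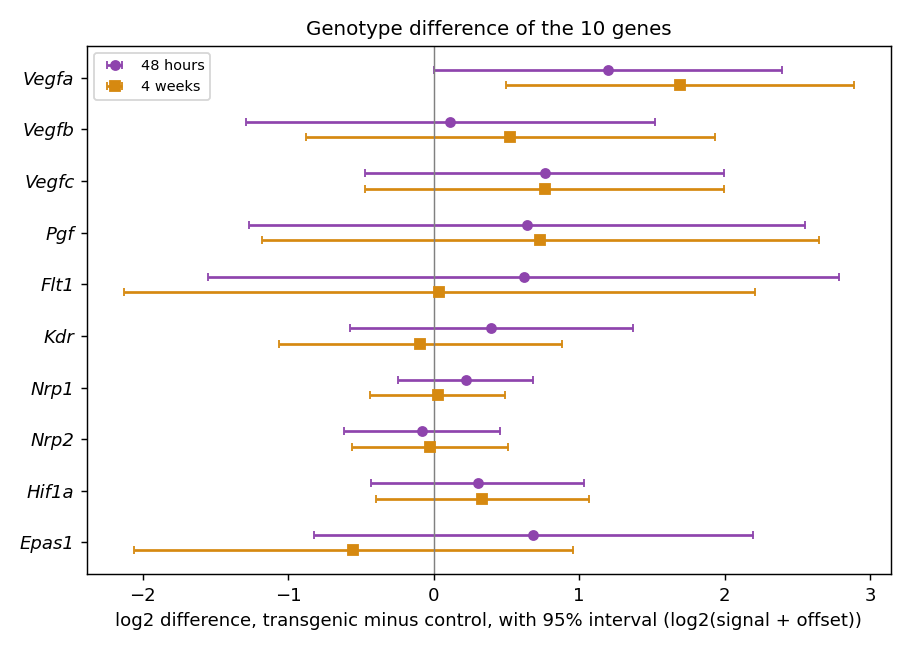
Log2 difference, transgenic minus control, for each of the 10 genes at 48 hours and at 4 weeks, with 95% intervals from limma. The Vegfa intervals lie above 0, barely at 48 hours (from 0.0014) and at 0.50 to 2.89 at 4 weeks. Those of the other 9 genes include 0, and the narrowest belong to Nrp1 and Nrp2.

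Over time, 4 weeks against 48 hours, 0 of 10 members passed the threshold in either genotype. Treatment began at 6 weeks of age, so mice treated for 4 weeks were also older. Age and treatment duration cannot be told apart in this comparison. In transgenic pools the smallest p belonged to Kdr, with a log2 difference of -0.76 (SE 0.44, unadjusted p = 0.111, adjusted p = 1), and 0 genes of the table passed (0%, with 2.19% at an unadjusted p under 0.05). In control pools it belonged to Vegfb, with -1.09 (SE 0.63, unadjusted p = 0.116, adjusted p = 0.861). There 1 gene passed (0.00767%, with 6.16% at an unadjusted p under 0.05), the coagulation factor F5, named after its value was seen. Vegfa differed by 0.17 (SE 0.54) in transgenic and -0.33 (SE 0.54) in control pools. The control pools serve both as the time reference and in the genotype comparisons, so these values are not independent.

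Genes of the same pathway gave no called difference. Of 14 tested partners and degraders of the hypoxia factors, such as Arnt, Vhl and the Egln prolyl hydroxylases, 7 had a positive difference at 48 hours and 7 at 4 weeks, with medians of 0.00 at both times. Egln1, which marks the factors for degradation, gave 1843 and 1895 in transgenic pools and 1307 and 1244 in control pools at 48 hours, a log2 difference of 0.54 (SE 0.26, adjusted p = 0.976). The groups did not overlap there, while the mean of all its probe sets gave -0.10. At 4 weeks Egln1 gave 1872 and 1357 in transgenic pools and 1380 and 1858 in control pools.

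Of 22 tested hypoxia target genes, 13 had a positive difference at 48 hours (median 0.09) and 15 at 4 weeks (median 0.18), and 0 were called. Mxi1, an antagonist of MYC, gave 827 and 1169 in transgenic pools and 1453 and 1627 in control pools at 48 hours. The 4 weeks signals were 1075 and 1628 in transgenic pools and 515 and 892 in control pools. Its groups lay apart in opposite directions at the 2 times, as did those of 5.5% of tested genes. The change between the times was 1.56 (SE 0.47, unadjusted p = 0.00776, adjusted p = 0.988). Tfrc, the transferrin receptor, differed by -0.65 (SE 0.29, unadjusted p = 0.0474, adjusted p = 0.965) at 4 weeks. Gbe1, the glycogen branching enzyme, differed by 1.10 (SE 0.52, unadjusted p = 0.0592, adjusted p = 0.976) at 48 hours on a dim probe set.

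Among 15 other tested genes of the VEGF and angiopoietin systems, 7 had a positive difference at 48 hours (median -0.14) and 9 at 4 weeks (median 0.04). Angpt2, the vessel-destabilising ligand of Tie2, gave 201 and 446 in transgenic pools and 17.2 and 215 in control pools at 48 hours, a log2 difference of 1.61 (SE 0.70, adjusted p = 0.976). The groups overlapped, and the control signal of 17.2 lay below the offset of 30.8. Leaving out 1 pool gave 0.43 to 2.79. At 4 weeks Angpt2 gave 293 and 152 in transgenic pools and 239.5 and 210.3 in control pools, a difference of -0.07 (SE 0.70), and the change between the times was -1.68 (SE 0.98, unadjusted p = 0.117, adjusted p = 0.988). Sema3a, a semaphorin that binds neuropilin 1, gave 47.7 and 11.6 in transgenic pools and 167 and 120 in control pools at 48 hours, a difference of -1.58 (SE 0.56, adjusted p = 0.976). Both of these transgenic signals lay below the array medians, and leaving out 1 pool gave -2.03 to -1.14. At 4 weeks Sema3a gave 114 and 122.5 in transgenic pools and 72.2 and 121.2 in control pools, a difference of 0.25 (SE 0.56), and the change between the times was 1.83 (SE 0.79, unadjusted p = 0.0417, adjusted p = 0.988). Flt4, the receptor of VEGF-C, differed by -0.88 (SE 0.57) at 48 hours and 1.04 (SE 0.57) at 4 weeks, with a change between the times of 1.93 (SE 0.81, unadjusted p = 0.0385, adjusted p = 0.988).

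Among markers of other cells, 0 genes were called in the genotype comparisons, but several lists differed between the genotypes in their counts of positive differences. In bulk samples, fewer cells of a type and less RNA per cell cannot be told apart. Of 12 tested luminal epithelial markers, 10 had a positive difference at 48 hours (median 1.32) and 3 at 4 weeks (median -0.27). Their summed signal was 13643 to 14439 in transgenic and 5202 to 5537 in control pools at 48 hours, and 8066 to 13056 in transgenic and 10923 to 15898 in control pools at 4 weeks. Krt8, a keratin of luminal cells, differed by 2.21 (SE 0.35, adjusted p = 0.545) at 48 hours. Over both times 9 of 12 luminal markers were positive (median 0.40). Of 9 tested neutrophil markers, 1 had a positive difference at 48 hours, 0 at 4 weeks and 0 over both times (median -0.68). Their summed signal was 9299 to 9734 in transgenic and 15337 to 17318 in control pools at 48 hours, and 8150 to 8364 in transgenic and 10525 to 23166 in control pools at 4 weeks, where the higher value came from control pool 2, the array with the high actin ratio.

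Of 11 tested endothelial markers, 8 had a positive difference at 48 hours and 3 at 4 weeks. Their summed signal was 2552 to 8423 in transgenic and 3430 to 3822 in control pools at 48 hours, and 2783 to 4196 in transgenic and 3123 to 4768 in control pools at 4 weeks. Without transgenic 48 hours pool 2 the endothelial count at 48 hours was 0 of 11 (median -0.42). It was 11 of 11 without transgenic 48 hours pool 1 (median 0.59). Of the defining endothelial genes, Pecam1 gave 14.5 to 238 and Cdh5 74.9 to 407 over the 8 arrays. The summed macrophage markers spanned 316843 to 359867 in transgenic and 331879 to 396314 in control pools. Fibroblast markers were positive for 8 of 10 tested at 48 hours (median 0.31) and 7 of 10 at 4 weeks (median 0.38), with sums of 72668 to 75538 in transgenic and 38786 to 85913 in control pools at 48 hours and 66201 to 86186 in transgenic and 57096 to 77429 in control pools at 4 weeks. Over both times 10 of 10 fibroblast markers were positive (median 0.30), and 6 of 10 without control 48 hours pool 1 (median 0.04). At 48 hours and 4 weeks the positive counts were 1 and 4 of 9 for dendritic cell markers, 2 and 4 of 6 for T and NK cell markers, 1 and 0 of 4 for myoepithelial markers and 3 and 2 of 5 for adipocyte markers. No marker was at 0 on any array, but the lowest signal of any probe set was 0.3, so this held for every gene. It does not show that a cell type was present. The part of these cells in the Vegfa, Flt1, Kdr and Epas1 signals was not tested.

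**Figure D4:**
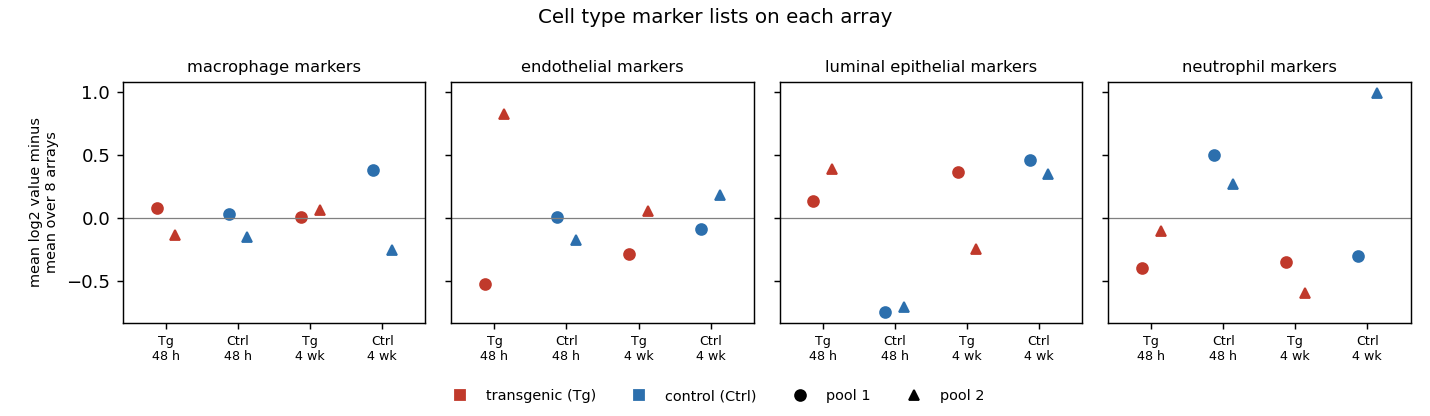
Mean log2 value of 4 marker lists on each array, minus its mean over the 8 arrays, with circles for pool 1 and triangles for pool 2 and transgenic left of control at each time. Luminal markers stand at 0.13 and 0.39 in transgenic and -0.74 and -0.71 in control pools at 48 hours, and the highest endothelial value, 0.83, is that of transgenic 48 hours pool 2.

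The pools of a group differed in the same way for several members. Pool 2 exceeded pool 1 in all 4 groups for Vegfc, Flt1, Kdr and Epas1, 4 of 10 members against 8.53% of tested genes. This comparison was chosen after seeing the data. Epas1 was 1.41 higher on the log2 scale in pool 2 (SE 0.19, unadjusted p = 2.36e-05, adjusted p = 0.0606), the 5th smallest p of 13041. Flt1 was 1.76 higher (SE 0.44, adjusted p = 0.309), Kdr 0.75 (SE 0.20, adjusted p = 0.350) and Vegfc 0.88 (SE 0.29, adjusted p = 0.434). Vegfa ran the other way, at -0.79 (SE 0.30, adjusted p = 0.512), and was higher in pool 2 in 1 group. No member passed the threshold in limma with group means and pool number, where 0.0153% of genes did, and 5 of 10 had an unadjusted p under 0.05, against 8.97% of genes. With an offset at the median of all values Epas1 passed, at adjusted p = 0.0491.

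Most endothelial markers had higher signal in pool 2 as well: 10 of 11 were higher in pool 2, with a median of 0.45. This compares with 1 of 13 macrophage markers, with a median of -0.15, and -0.01 over all genes. The groups were not alike. The endothelial list's mean log2 value, centred over all arrays, was 0.007 in control 48 hours pool 1 and -0.17 in pool 2. In transgenic 48 hours pools 1 and 2 it was -0.53 and 0.83. At 4 weeks it was -0.08 and 0.18 in control pools and -0.29 and 0.05 in transgenic pools. Pecam1 was lower in pool 2 (-0.75), and Tek (0.0095) was higher in only 1 group. Sox17, an endothelial transcription factor, was 1.67 higher (SE 0.29) and Cldn5, a tight junction protein of endothelium, was 1.21 higher (SE 0.28), and neither passed (adjusted p = 0.204 and 0.297). Transgenic 48 hours pool 2 had the highest signals of Flt1, Kdr, Epas1, Sox17 and Cldn5 on any array. Without that pool the pool differences were 1.20 for Epas1, 1.20 for Flt1, 0.61 for Kdr and 0.84 for Vegfc, all still positive. Their relation to endothelial content was not tested.

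**Figure D5:**
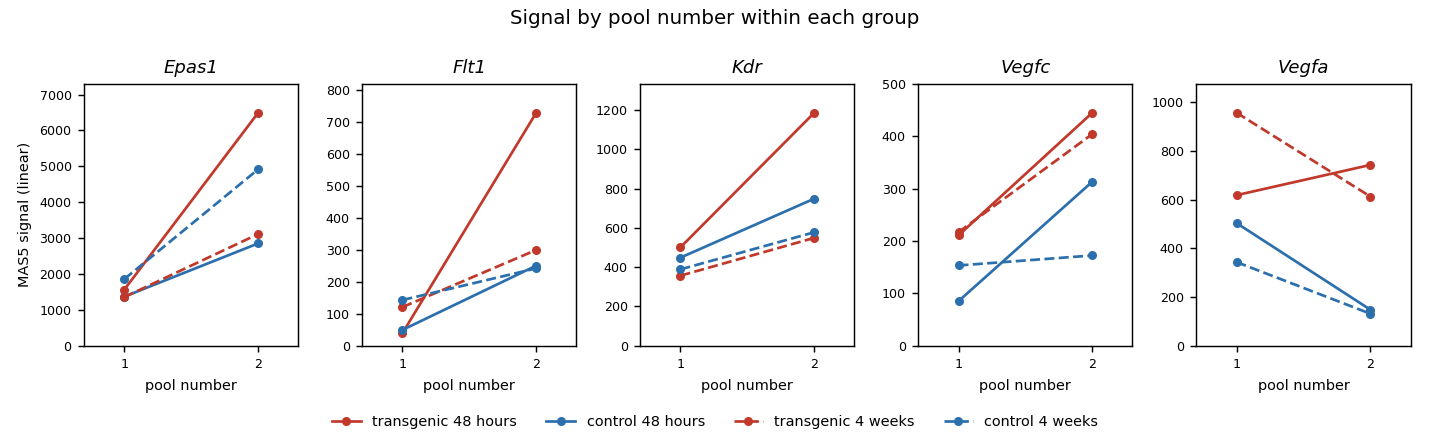
Linear MAS5 signal of Epas1, Flt1, Kdr, Vegfc and Vegfa against pool number, with a line joining the 2 pools of each group (red transgenic, blue control, solid 48 hours, dashed 4 weeks). Pool 2 is above pool 1 in all 4 groups for the first 4 genes and in 1 group for Vegfa; the lines join different mice and are no course over time.

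The 5 tested genes with the profile most like that of Vegfa over the 8 arrays were Fuom, Tex47, Hs3st1, Serpina1b and Sntb2. Likeness was the mean absolute difference between log2 profiles centred on their means, which was 0.24 to 0.31 for these genes, against a mean absolute deviation of 0.78 of Vegfa from its own mean. They were picked from 13040 genes as the closest, so the likeness is a description. Apart from Sntb2, with 79.2 to 382 on its probe set, all were dim, with signals between 4.5 and 199.2.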

How the data were processed

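Each deposited value is a probe set's signal intensity on a linear scale. MAS5 is the tool that the submitters' processing notes name for it, and the authors gave no version. RNA of 3 mice per pool was amplified in 2 cycles per the labels' protocols, and such amplification shortens transcripts towards their 3' ends. The mean without the lowest and highest 2% was 500 on all 8 arrays. No detection calls, genome build or probe coordinates are given in the sources used here. Precision is limited by how many arrays there were.

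Of 45101 probe sets, 34945 carried 1 symbol and were used. Per gene, the probe set with the highest mean signal was taken, and genes above the array median on at least 2 arrays were tested. The offset of 30.8 is the 25th percentile of all values. The model was fitted in limma 3.58.1 (R 4.3.3) with 4 group means and a variance trend, two-sided, with an adjusted p of 0.05 as the threshold. It had 4 residual degrees of freedom and 6.21 prior ones from the other genes. The offset shrinks log2 differences of dim genes. The pipeline was tested on simulated data. Figures were drawn with matplotlib 3.10.9.

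The members and lists were chosen with earlier results of these data known. Of 153 other listed genes, 140 matched through symbols and synonyms. Named were all members, up to 3 genes per list with the smallest p in each genotype comparison, defining markers, and the 5 profiles closest to Vegfa. Cldn5, Slc2a1, Ndrg1, Ddit4, Hsph1 and F5 were named after their values were seen. Alternatives covered normalization, offset, filter, probe set choice, variance trend, the actin ratio as a covariate, pool number as a block, the arrays fitted and each pool left out. Same-numbered pools deviated from their group means with correlations of -0.09 to 0.13, so the number was not treated as a pairing.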

Additional observations from a re-analysis of the deposited data

How the results depend on the processing

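No member was called under any alternative except Epas1 by pool number with an offset at the median (1 member called), and the Vegfa differences at 48 hours, at 4 weeks and over both times stayed positive under all of them. The pool number as a replicate block changed no member's call: Vegfa then had adjusted p = 0.909 at 48 hours, 0.654 at 4 weeks and 0.602 over both times. With the block, 2 genes were called at 4 weeks (0 without) and 4 for time in control pools (1 without). Time in control pools called 7 genes with the actin covariate, 2 at an adjusted p of 0.1 and 0 with the 75th percentile filter, the mean of probe sets, no trend or only the arrays compared. Only the arrays compared gave 1 gene at 48 hours and 1 at 4 weeks, and the mean of probe sets gave 1 for the change between the times. At an unadjusted p under 0.05 the counts were 531, 662, 618, 286, 803 and 582 genes, and 1 member in each genotype comparison. That member was Vegfa, and without the filter its unadjusted p in limma at 48 hours was 0.056. By pool number, 7 genes were called with an offset at the median, 0 with no trend and 12 with the actin covariate. Leaving out 1 pool gave 0 to 1 called genes at 48 hours, 0 to 1 at 4 weeks, 0 to 1 for the change, 0 to 1 for time in transgenic pools, 0 to 7 in control pools, 0 to 3 over both times and 0 to 10 by pool number. The causes were not tested.

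Signs turned for uncalled values. The mean of all probe sets gave, at 48 hours, Nrp1 -0.010, Hif1a -0.41 and Egln1 -0.10; at 4 weeks, Flt1 -0.29, Nrp2 0.014 and Notch1 -0.025; for the change, Vegfc 0.19 and Nrp1 0.024. For time it gave Nrp1 -0.026 and Hif1a 0.36 in transgenic pools, and Nrp1 -0.050 and Nrp2 -0.33 in control pools; over both times, Flt1 -0.0093 and Epas1 -0.22. The actin covariate gave, at 4 weeks, Kdr 0.37, Nrp1 -0.14 and Epas1 0.43; for the change, Vegfc 0.16, Nrp2 -0.031 and Hif1a -0.0305; for time, Flt1 0.089 and Nrp1 -0.019 in transgenic pools and Hif1a 0.011 in control pools; by pool number, Vegfb -0.21. Quantile normalization gave Nrp1 -0.040 for time in transgenic pools, and Vegfc 0.045 and Nrp2 -0.014 in control pools. No offset gave Pgf -0.30 for the change and Flt1 0.17 for time in transgenic pools, and the offset at the median gave Vegfc 0.034 for the change.

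Leaving out 1 pool at a time turned the sign of these log2 differences, given from lowest to highest. For the genotype difference at 48 hours they were Vegfb -0.43 to 0.66, Vegfc -0.021 to 1.55, Flt1 -1.10 to 2.34, Kdr -0.20 to 0.99, Nrp2 -0.26 to 0.10, Hif1a -0.097 to 0.70 and Epas1 -0.33 to 1.70. At 4 weeks they were Pgf -0.42 to 1.89, Flt1 -0.52 to 0.60, Kdr -0.38 to 0.20, Nrp1 -0.15 to 0.21, Nrp2 -0.22 to 0.17, Hif1a -0.10 to 0.77, Epas1 -1.25 to 0.14 and Epcam -0.48 to 0.94. For the change between the times they were Vegfa -0.29 to 1.29, Vegfb -0.13 to 0.95, Vegfc -0.79 to 0.79, Pgf -1.06 to 1.24, Flt1 -2.30 to 1.14, Kdr -1.09 to 0.11, Nrp2 -0.14 to 0.25 and Hif1a -0.40 to 0.47. For 4 weeks against 48 hours in transgenic pools they were Vegfa -0.14 to 0.48, Vegfc -0.54 to 0.44, Pgf -1.51 to 0.79, Flt1 -1.76 to 1.68, Nrp1 -0.17 to 0.18, Hif1a -0.44 to 0.43 and Epas1 -1.64 to 0.39. In control pools they were Vegfa -1.12 to 0.46, Vegfc -0.83 to 0.74, Pgf -0.97 to 0.063, Flt1 -0.37 to 1.44, Kdr -0.63 to 0.076, Nrp2 -0.19 to 0.20, Hif1a -0.43 to 0.37 and Epas1 -0.089 to 1.30. For genotype over both times they were Flt1 -0.53 to 1.19, Kdr -0.15 to 0.45, Nrp2 -0.15 to 0.048 and Epas1 -0.44 to 0.57. For pool number they were Vegfb -0.10 to 0.42, Pgf -0.17 to 0.95, Nrp1 -0.057 to 0.18 and Nrp2 -0.10 to 0.15.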

Other observations

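Of the hypoxia target genes, Ndrg1, Slc2a1 and Ddit4, picked after their values were seen, and Mxi1 had higher signal in pools numbered 2. None of them passed the threshold. Ndrg1, a stress-induced gene, gave 3357 in transgenic pool 2 and 1566 in transgenic pool 1 at 48 hours, and 2599 in control pool 2 and 1888 in control pool 1. At 4 weeks it gave 4048 in transgenic pool 2 and 1238 in transgenic pool 1, and 3603 in control pool 2 and 1487 in control pool 1. Pool 2 was higher in all 4 groups, by 1.12 on the log2 scale (SE 0.20, adjusted p = 0.204). Slc2a1, the glucose transporter GLUT1, was 0.67 higher (SE 0.22, adjusted p = 0.430), Ddit4 0.62 (SE 0.22, adjusted p = 0.486) and Mxi1 0.50 (SE 0.18, adjusted p = 0.482), each in all 4 groups. Over all tested genes, 8.53% were higher in pool 2 in all 4 groups. Of the 22 hypoxia target genes tested, 12 had a positive and 10 a negative pool difference. Their median was 0.06, against -0.01 over all genes.

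In the same limma fit, which was chosen after seeing the data, 2 genes passed the threshold (0.0153% of those tested). Fabp4, a fatty acid binding protein of adipocytes, endothelium and macrophages, was 1.33 higher in pool 2 (SE 0.15, adjusted p = 0.0321), and Hsph1, a heat shock protein, was 1.48 higher (SE 0.16, adjusted p = 0.0321). Hsph1 gave 16961 to 22651.5 in the 4 pools numbered 2 and 6181 to 8896 in the 4 pools numbered 1. Fabp4 gave 16442 to 27359 in pools numbered 2 and 7002 to 9475 in pools numbered 1, so neither gene's ranges overlapped.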
